A study of Arabidopsis thaliana with 6 samples.

Results

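Glucosinolate synthesis, transport and breakdown is described here through 47 genes, chosen by locus identifier for their known place in the pathway. The choice was made with earlier results of these data known. They comprise 27 genes of the aliphatic branch, 12 of the indole branch and 8 that serve both branches or act on the finished compounds. Of the 47, 46 have a row among the 27416 genes of the deposited table, and AOP2 (AT4G03060) is not analysed here. A mean of 1 FPKM or more over all libraries was reached by 41 of the 46, and these 41 were tested among 17812 genes. The other 5 (MYB29, MYB76, GSTF11, FMO GS-OX2 and AOP3) were too low for the test and are given at the end of the aliphatic results.

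Glucosinolates are sulphur-rich glucosides that Brassicaceae store against herbivores and microbes. The aliphatic ones are built from methionine whose side chain is first elongated, and the indole ones from tryptophan. Each branch has its own R2R3-MYB transcription factors and its own cytochromes P450, while the later core steps (carbon-sulphur cleavage, glucosylation, sulphation) use shared or closely related enzymes. Thioglucosidases called myrosinases release toxic products when tissue is damaged. In Arabidopsis a further route, with the glucosidase PEN2 and the transporter PEN3, acts on indole glucosinolates in living cells under microbial attack.

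RNA from whole wild-type Arabidopsis thaliana seedlings, 7 days old, was sequenced after water (3 libraries) or CLE9, a secreted signalling peptide of the CLE family, at 200 nM (3 libraries). All seedlings were of the same genotype. The length of treatment and the origin of the replicates are not stated, so the error behind each p-value may be technical variation alone. Levels are in FPKM, which scales the fragments of a gene by its length and by the M (1e6) fragments mapped in the library. Depth, estimated roughly from the low values, was about 20.7 to 31.8 M fragments per library, and a lone fragment on 1 kb then gives 0.0314 to 0.0483 FPKM. In whole seedlings, fewer cells of a type and less RNA per cell cannot be told apart.

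In each group, replicate 2 differed from replicates 1 and 3. The 17 touch and wounding genes had a median 4.24 log2 units higher in water replicate 2 than in the mean of water replicates 1 and 3, and 3.25 higher in CLE9 replicate 2 than in the mean of CLE9 replicates 1 and 3. Their summed level ran from 868 to 7011 FPKM in water and from 1904 to 7812 FPKM with CLE9. The 20 jasmonate genes shifted by 2.70 and 1.78 (sums of 248 to 1848 and 491 to 2381 FPKM). Markers of root tissues (15 genes) shifted by -0.87 and -2.06 (sums of 85.8 to 242 and 46.0 to 232 FPKM), and those of green tissue (20 genes) by -0.45 and -1.85 (sums of 51517 to 65849 and 17955 to 65731 FPKM). None of the markers was at 0 in every library. Between the groups the median change was 0.77 for touch and wounding (15 of 17 higher with CLE9), 0.38 for jasmonate (12 of 19), -0.27 for root (10 of 13 lower) and -0.80 for green tissue (20 of 20 lower). Over all genes tested, 42.6% were higher with CLE9 and 57.4% lower. The part of these marker genes in the glucosinolate results was not tested.

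The comparison of CLE9 with water asks which transcripts differ in seedlings given the peptide. Of 11 tested core synthesis genes, 5 (CYP83B1, SOT16, SOT17, UGT74B1 and SUR1) had a higher mean log2(FPKM + 1) with CLE9 and 6 a lower one. Of all genes tested, 42.6% were higher and 57.4% lower. The indole methyltransferase genes IGMT1 and IGMT2, and PEN2 and PEN3, were also higher. Changes of these named genes ran from 1.60 to 5.46 log2 units, and the groups overlapped for SOT16, SOT17 and UGT74B1. In the indole branch MYB34, CYP81F4 and IGMT5 lay below water in all libraries. Genes of the aliphatic branch had slightly lower values, with a median change of -0.33, and the myrosinase genes TGG1 and TGG2 had nearly the same mean in both groups. With group as the only term, limma's test on log2(FPKM + 1) called none of the 41 genes at an adjusted p under 0.05 (0 higher and 0 lower), where 0% of all genes were called higher and 0.00561% lower. An unadjusted p under 0.05 was found for 8 of the 41 higher and 4 lower, against 5.83% and 3.07% of all genes (8.9% in either direction).

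With the replicate number as a block, 5 of the 41 rose (CYP83B1, SOT16, SOT17, UGT74B1 and SUR1) and 0 fell, against 1.75% and 0.247% of all genes (1.99% in either direction). With a pseudocount of 0.1 in place of 1 the blocked fit called 0 of the 41 and 2 of all genes. The blocked fit called 0 of the 41 without replicate 1 of both groups and 0 without replicate 3, where it also called 0 of all genes. Without replicate 2 it called 16 (12 higher, 4 lower), against 8.03% of all genes higher and 2.47% lower. All 5 were also higher in water replicate 2 than in both other water libraries, as was the case for 30.3% of all genes. Without replicate 2 of both groups and with no block, a comparison of 2 libraries with 2, 11 of the 41 rose and 6 fell, against 8.41% and 2.95% of all genes. All 11 that rose, and 2 of the 6 that fell, were higher in water replicate 2 than in both other water libraries.

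The groups did not overlap for 12 of the 41 genes. CLE9 lay above water in all libraries for 6 (CYP83B1, SUR1, IGMT1, IGMT2, PEN2 and PEN3), against 8.51% of all genes, and below it for 6 (MYB34, IGMT5, CYP81F4, CYP79F1, AT2G31790 and FMO GS-OX4), against 7.47%. In all 3 pairs of libraries 12 of the 41 were higher, against 19.8% of all genes, and 13 lower, against 26%.

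**Figure D1:**
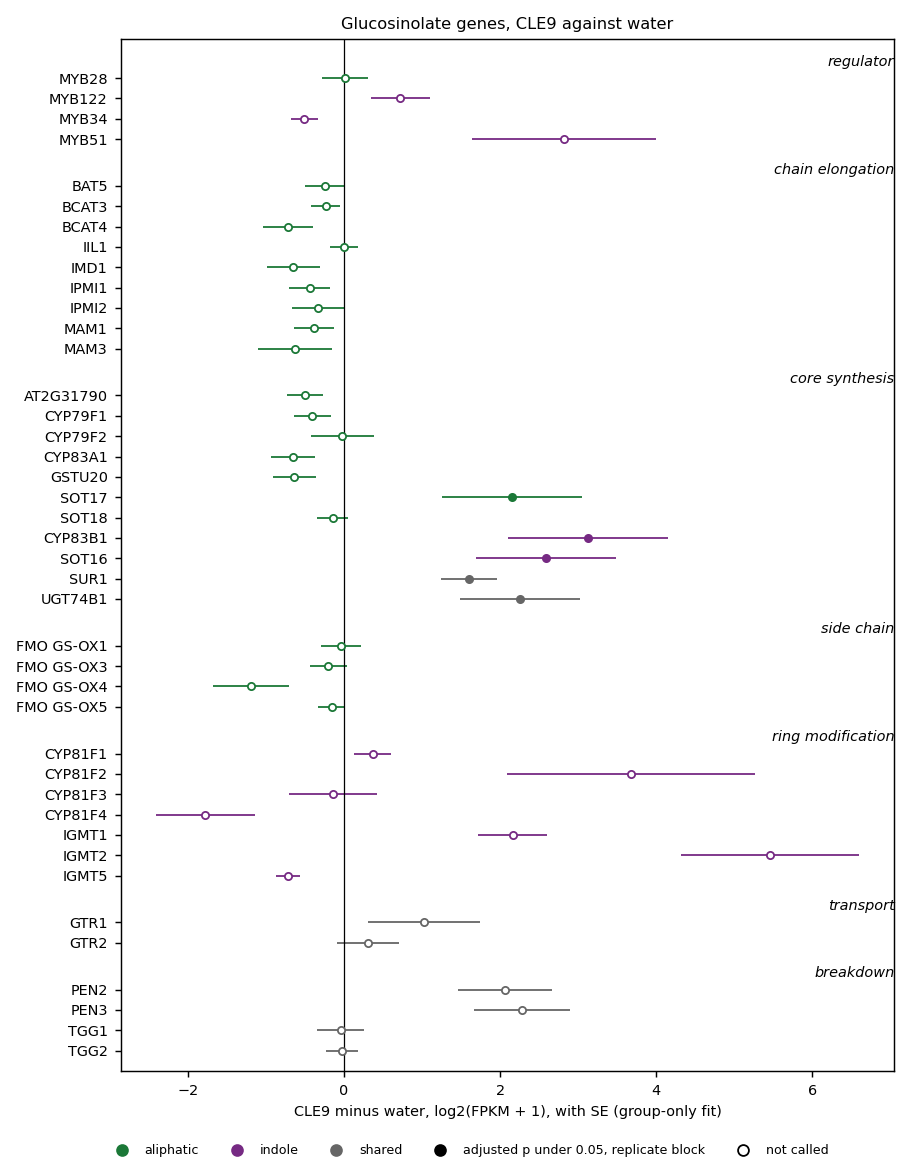
Difference between CLE9 and water for the 41 tested genes, on the log2(FPKM + 1) scale with the standard error of the group-only fit, grouped by role and coloured by branch. Filled points are the 5 genes called with the replicate block, all core synthesis genes with changes of 1.60 to 3.13; the 9 chain elongation genes lie between -0.72 and -0.0027.

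The regulators of the indole branch differed among themselves. MYB51 (AT1G18570, chromosome 1, 6389411 to 6391267) encodes the factor that drives indole glucosinolate synthesis in shoots and after pathogen signals. It was at 7.33, 125.9 and 7.76 FPKM in water replicates 1, 2 and 3 and at 92.7, 346.5 and 98.7 FPKM in CLE9 replicates 1, 2 and 3. Every CLE9 library was above the water library of its number, but water replicate 2 exceeded CLE9 replicates 1 and 3, so the groups overlapped. The log2 change was 2.82 ± 1.17 (SE, limma adjusted p = 0.572, and 0.0523 with the block). It was 3.50 without replicate 2 of both groups (adjusted p = 2.56e-04).

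MYB34, the related factor known mainly from roots, was at 5.00, 3.63 and 5.06 FPKM in water and 2.59, 2.93 and 3.15 FPKM with CLE9. Its 3 CLE9 values all lay below the 3 water values, with a log2 change of -0.51 ± 0.18 (limma adjusted p = 0.486, and 0.178 with the block). MYB122, the third factor of this clade, stayed low at 0.874, 0.401 and 0.346 FPKM in water and 0.766, 3.31 and 1.07 FPKM with CLE9. The groups overlapped for MYB122, and its highest value was in CLE9 replicate 2.

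**Figure D2:**
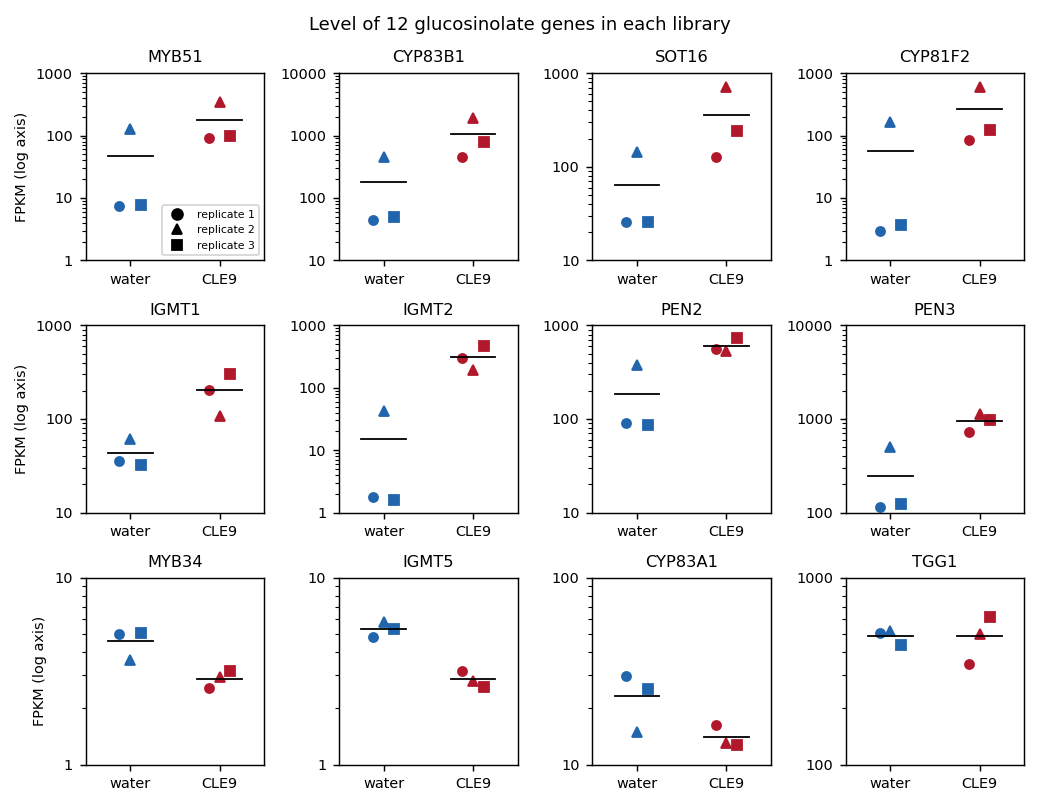
FPKM on a log axis of 12 glucosinolate genes in each library, with water in blue and CLE9 in red, symbols for the replicate number and a bar at the mean of each group (n = 3). Water replicate 2 (blue triangle) lies nearest the CLE9 values for MYB51, CYP83B1, SOT16 and CYP81F2, and TGG1 runs from 437 to 520.3 FPKM in water and from 344 to 619 FPKM with CLE9.

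CYP83B1 (AT4G31500, chromosome 4, 15273471 to 15275310) encodes the cytochrome P450 that oxidises indole-3-acetaldoxime and so commits it to indole glucosinolates. It was at 43.8, 455 and 50.2 FPKM in water and at 461, 1936 and 783 FPKM with CLE9. The lowest CLE9 library was barely above water replicate 2, and both were far above water replicates 1 and 3. The means were 183 ± 236 and 1060 ± 776 FPKM (SD, n = 3 each), and the log2 change was 3.13 ± 1.03 (SE, limma adjusted p = 0.458, and 0.0423 with the block).

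SOT16 (AT1G74100), the sulphotransferase that prefers indole substrates and adds the last group of the core structure, was at 25.7, 142.5 and 25.5 FPKM in water and 127, 711 and 240.3 FPKM with CLE9. SOT17 (AT1G18590), a sister sulphotransferase listed here with the aliphatic branch, was at 2.64, 13.0 and 1.90 FPKM in water and 9.25, 70.0 and 16.9 FPKM with CLE9. For both, water replicate 2 was above CLE9 replicate 1 and the other values were ordered by treatment. Their log2 changes were 2.59 ± 0.90 and 2.15 ± 0.90 (limma adjusted p = 0.484 and 0.570, and 0.0339 and 0.0384 with the block).

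Among the shared enzymes of the core, SUR1 (AT2G20610), the C-S lyase that releases the thiohydroximate, was at 24.7, 44.8 and 22.7 FPKM in water and 63.1, 123 and 97.8 FPKM with CLE9, with no overlap. Its log2 change was 1.60 ± 0.36 (limma adjusted p = 0.291, and 0.0423 with the block). UGT74B1 (AT1G24100), the glucosyltransferase of the next step, was at 13.9, 44.7 and 10.5 FPKM in water and 43.9, 237 and 78.2 FPKM with CLE9. Its log2 change was 2.25 ± 0.77 (limma adjusted p = 0.479, and 0.0398 with the block). Here water replicate 2 was again slightly above CLE9 replicate 1.

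Genes for enzymes that modify the indole ring differed in both directions. CYP81F2 (AT5G57220, chromosome 5, 23187840 to 23189857) encodes a hydroxylase of the indole ring on the way to the methoxylated compound used by PEN2. It was at 2.97, 166 and 3.65 FPKM in water and 85.9, 593 and 124 FPKM with CLE9. Each CLE9 library exceeded the water library of its number, while water replicate 2 exceeded CLE9 replicates 1 and 3. The log2 change was 3.68 ± 1.60 (limma adjusted p = 0.589, and 0.0535 with the block). It was 4.60 without replicate 2 of both groups (adjusted p = 4.61e-04).

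The other CYP81F genes had lower or overlapping values. CYP81F1 was at 11.1, 7.27 and 11.4 FPKM in water and 12.2, 10.9 and 15.9 FPKM with CLE9. CYP81F3 was at 5.03, 1.45 and 4.98 FPKM and 3.88, 1.04 and 5.62 FPKM. In both the groups overlapped, and CYP81F3 was lowest in replicate 2 of each group. CYP81F4 (AT4G37410), whose product acts at the ring nitrogen, was at 18.7, 36.8 and 18.2 FPKM in water and 9.28, 1.71 and 11.8 FPKM with CLE9, all below water. Its log2 change was -1.78 ± 0.64, and it was -0.76 without replicate 2 of both groups (limma adjusted p = 0.497 and 0.0313). The annotated gene AT4G37409 on the other strand covers 2140 bases of CYP81F4, and since use of the strand in counting is not given, its reads cannot be told apart from those of CYP81F4.

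IGMT1 and IGMT2 encode methyltransferases that act on the hydroxylated indole compounds and lie in a cluster with IGMT3 and IGMT4 on chromosome 1. IGMT2 (AT1G21120, 7395228 to 7396773) was at 1.76, 42.5 and 1.57 FPKM in water and at 297, 190.5 and 461 FPKM with CLE9. IGMT1 (AT1G21100, 7386839 to 7388428) was at 35.8, 61.2 and 32.0 FPKM in water and 202, 108.3 and 303 FPKM with CLE9. In neither did the groups overlap, and unlike CYP83B1 both were lower in replicate 2 of CLE9 than in the other CLE9 libraries. The log2 changes were 5.46 ± 1.14 for IGMT2 and 2.16 ± 0.45 for IGMT1 (limma adjusted p = 0.271 and 0.268, and 0.0682 and 0.0852 with the block), and that of IGMT2 was the largest of all 17812 genes tested.

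The coding sequences of IGMT1 and IGMT2 were 92.5% identical, and IGMT2 and IGMT3 97.4%, so reads of the cluster may have been divided between them and the single values are uncertain. IGMT5 (AT1G76790), which methylates after hydroxylation at the ring nitrogen and lies outside the cluster, was 77.3% identical to IGMT1. It was at 4.84, 5.82 and 5.32 FPKM in water and 3.15, 2.82 and 2.61 FPKM with CLE9. All CLE9 values of IGMT5 were below all water values (log2 change -0.71 ± 0.15, limma adjusted p = 0.280, and 0.0805 with the block).

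To show the sequence before the indole genes with large differences, the 250 bases before the gene start of MYB51 (chr1:6389149-6389398, plus strand), CYP81F2 (chr5:23187590-23187839, plus strand) and IGMT2 (chr1:7396824-7397073, minus strand) are printed from RefSeq, build TAIR10.1, 5′ to 3′ along the gene. Capitals mark TTGAC on either strand, the core of the W-box to which WRKY transcription factors bind.
MYB51: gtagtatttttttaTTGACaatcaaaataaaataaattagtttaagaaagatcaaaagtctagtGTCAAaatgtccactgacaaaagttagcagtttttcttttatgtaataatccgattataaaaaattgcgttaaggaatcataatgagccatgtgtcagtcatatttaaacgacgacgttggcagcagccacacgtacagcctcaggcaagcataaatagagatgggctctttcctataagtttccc
CYP81F2: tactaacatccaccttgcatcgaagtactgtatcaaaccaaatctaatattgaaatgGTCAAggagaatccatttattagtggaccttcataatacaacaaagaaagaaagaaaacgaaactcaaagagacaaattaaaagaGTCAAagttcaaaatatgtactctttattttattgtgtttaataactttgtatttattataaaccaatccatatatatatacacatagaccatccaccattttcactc
IGMT2: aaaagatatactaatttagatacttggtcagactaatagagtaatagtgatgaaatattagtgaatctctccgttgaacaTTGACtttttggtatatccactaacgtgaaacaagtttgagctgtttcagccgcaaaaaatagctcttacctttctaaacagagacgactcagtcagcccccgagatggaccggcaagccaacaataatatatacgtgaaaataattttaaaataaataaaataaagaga

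MYB51 and CYP81F2 held 2 such cores each and IGMT2 held 1. The core is short and common, and 45% of 26709 promoter windows of this length held it. It was in 5 of 12 windows of indole genes (41.7%) and in 9 of 26 of aliphatic genes (34.6%), and the windows of CYP83B1 and SOT16 held none.

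PEN2 and PEN3 act in the living-cell route. PEN2 (AT2G44490, chromosome 2, 18364756 to 18367725), an atypical myrosinase, was at 90.5, 376 and 86.7 FPKM in water and 566, 531 and 732 FPKM with CLE9. PEN3 (AT1G59870, chromosome 1, 22034506 to 22040038), an ABC transporter of the plasma membrane, was at 114, 496 and 123 FPKM in water and 728, 1130.3 and 985 FPKM with CLE9. In both genes every CLE9 library was above every water library. The log2 changes were 2.06 ± 0.61 and 2.28 ± 0.61 (limma adjusted p = 0.392 and 0.355, and 0.123 and 0.0638 with the block). Without water replicate 2 these were 2.75 and 2.96 (adjusted p = 0.0296 and 0.0326), and with IGMT2 (6.81, adjusted p = 0.0128) they were the 3 genes of the 41 that rose in that fit, which called 1.09% of all genes higher and 0.0505% lower (1.15% in either direction).

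The classical myrosinases did not show this difference. TGG1 (AT5G26000) was at 509, 520.3 and 437 FPKM in water and 344, 498 and 619 FPKM with CLE9. TGG2 (AT5G25980) was at 161, 179 and 133 FPKM and 158, 150.5 and 151 FPKM. The groups overlapped in both, with log2 differences of -0.041 ± 0.30 and -0.029 ± 0.20 whose sign turned with single libraries. The glucosinolate importers GTR1 (AT3G47960) and GTR2 (AT5G62680), which load the compounds into the phloem, also overlapped. GTR1 was at 10.4, 55.7 and 10.4 FPKM in water and 22.1, 44.8 and 57.1 FPKM with CLE9, and GTR2 at 35.7, 59.5 and 32.2 FPKM and 31.4, 76.3 and 54.2 FPKM. Their log2 changes were 1.02 ± 0.72 and 0.30 ± 0.39 (limma adjusted p = 0.745 and 0.867). Without replicate 2 of both groups these were 1.69 and 0.28 (adjusted p = 0.0586 and 0.559).

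In the aliphatic branch 19 of the 21 tested genes had a lower mean with CLE9, against 57.4% of all genes. Of the 21, 10 were lower in all 3 pairs, against 26% of all genes. The median change was -0.33, beside -0.055 for all genes tested, and no gene fell in the group-only or blocked fit. The exceptions were SOT17, given above, and the main regulator MYB28 (AT5G61420). MYB28 was at 10.8, 4.50 and 7.98 FPKM in water and 7.52, 7.49 and 7.21 FPKM with CLE9, a difference of 0.0089 ± 0.29. It overlapped fully, and its sign turned with single libraries.

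Chain elongation lengthens methionine in repeated rounds. BCAT4 (AT3G19710), the aminotransferase that starts it, was at 22.7, 11.7 and 21.1 FPKM in water and 11.98, 7.43 and 12.8 FPKM with CLE9. The gene AT3G19700 on the other strand overlaps BCAT4 over 307 bases. IMD1 (AT5G14200), the dehydrogenase of the cycle, was at 27.4, 13.9 and 23.9 FPKM and 16.8, 8.87 and 14.4 FPKM. Both were lower in each pair but overlapped, since water replicate 2 was as low as the CLE9 libraries. Their log2 changes were -0.72 ± 0.32 and -0.65 ± 0.34 (limma adjusted p = 0.601 and 0.663, and 0.0156 and 0.0380 without replicate 2 of both groups). The condensing enzyme genes MAM1 and MAM3 differed by -0.38 ± 0.25 and -0.62 ± 0.47, and the remaining 5 (BCAT3, IIL1, IPMI1, IPMI2 and BAT5) by -0.44 to -0.0027.

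Of the aliphatic core, CYP83A1 (AT4G13770, chromosome 4, 7990485 to 7992311) encodes the counterpart of CYP83B1 for methionine-derived oximes, with 68.4% identity between their coding sequences. CYP83A1 was at 29.7, 14.95 and 25.3 FPKM in water and 16.3, 13.0 and 12.7 FPKM with CLE9. Water replicate 2 lay among the CLE9 values, while water replicates 1 and 3 were above them (log2 change -0.65 ± 0.28, limma adjusted p = 0.588). Without replicate 2 of both groups it was -0.88 (adjusted p = 0.0276). CYP83A1 was thus lower in each pair of libraries in which CYP83B1 was higher.

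CYP79F1 and CYP79F2, which make the aliphatic oximes, were 91.9% identical in coding sequence and are uncertain singly. CYP79F1 was at 2.33, 4.39 and 2.35 FPKM in water and 1.88, 2.15 and 1.85 FPKM with CLE9, without overlap. CYP79F2 was at 5.40, 3.56 and 3.68 FPKM and 2.04, 7.87 and 3.84 FPKM, overlapping fully. AT2G31790, listed as a UDP-glycosyltransferase, was at 21.7, 15.8 and 18.8 FPKM and 14.2, 9.66 and 15.5 FPKM, without overlap. SOT18 and GSTU20, a sulphotransferase and a glutathione transferase, differed by -0.15 ± 0.20 and -0.64 ± 0.28.

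Side-chain oxidation by the FMO GS-OX enzymes converts methylthio to methylsulphinyl groups. FMO GS-OX4 (AT1G62570) was at 16.0, 14.2 and 18.5 FPKM in water and 7.02, 2.70 and 13.3 FPKM with CLE9. All its CLE9 values were below all water values, with a log2 change of -1.19 ± 0.48 (limma adjusted p = 0.554, and 0.127 with the block). FMO GS-OX1, FMO GS-OX3 and FMO GS-OX5 differed by -0.20 to -0.041, with groups that overlapped. FMO GS-OX5 overlaps another gene, AT1G12150, over 1066 bases. Of the 5 genes too low to test, the regulator MYB29 was at 0.329, 0.287 and 0.319 FPKM in water and 0.355, 0 and 0.129 FPKM with CLE9. MYB76, a further regulator, was at 0.102, 0.0338 and 0.192 FPKM in water and listed at 0 in all CLE9 libraries. GSTF11 ran from 0.126 to 1.156 FPKM and FMO GS-OX2 from 0 to 0.654 FPKM. AOP3, for a side-chain dioxygenase, was listed at 0 in every library but CLE9 replicate 2, where it was at 0.281 FPKM.

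Beside the indole promoters, the same windows of CYP83A1 (chr4:7992430-7992679, minus strand), CYP79F2 (chr1:5604794-5605043, plus strand) and IPMI2 (chr2:17920397-17920646, plus strand) are printed. They are the windows of the aliphatic genes that hold ACCTACC on either strand, in capitals, an AC element of the kind bound by plant R2R3-MYB proteins. Only this element is marked, and the CYP79F2 window also holds 1 TTGAC core.
CYP83A1: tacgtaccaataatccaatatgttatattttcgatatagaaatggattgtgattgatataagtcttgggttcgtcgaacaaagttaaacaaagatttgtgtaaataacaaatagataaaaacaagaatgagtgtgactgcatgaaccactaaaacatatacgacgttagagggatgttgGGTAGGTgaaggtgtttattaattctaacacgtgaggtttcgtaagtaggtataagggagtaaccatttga
CYP79F2: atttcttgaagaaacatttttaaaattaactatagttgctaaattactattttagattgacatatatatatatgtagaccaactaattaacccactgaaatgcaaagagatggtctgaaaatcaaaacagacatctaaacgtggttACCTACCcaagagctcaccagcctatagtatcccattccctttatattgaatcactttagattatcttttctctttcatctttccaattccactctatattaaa
IPMI2: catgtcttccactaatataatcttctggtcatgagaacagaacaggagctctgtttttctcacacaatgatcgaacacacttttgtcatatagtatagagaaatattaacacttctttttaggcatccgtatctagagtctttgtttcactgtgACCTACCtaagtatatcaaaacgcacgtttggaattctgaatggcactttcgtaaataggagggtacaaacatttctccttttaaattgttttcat

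ACCTACC was in these 3 of 26 aliphatic windows (11.5%) and in 0 of 12 indole windows, against 309 of the 26709 promoters. The related element ACCAACC was in 4 of 26 (15.4%) and 1 of 12 (8.33%), against 2.7%. Either was in 7 of 26 aliphatic windows (26.9%), 1 of 12 indole windows (8.33%) and 1 of 8 shared windows (12.5%), against 3.79% of all promoters. The G-box CACGTG was in 2 of 26 and 0 of 12, against 6.57%. These are matches of letters in a short window, both strands read and overlaps between motifs kept.

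Set against each other within a library, the branches differed in order. The mean log2(FPKM + 1) level over the 12 indole genes minus that over the 21 aliphatic genes was -0.68, 1.17 and -0.49 in water replicates 1, 2 and 3. With CLE9 it was 1.56, 1.85 and 1.81 in replicates 1, 2 and 3. Indole genes were thus below aliphatic genes on average in water replicates 1 and 3 and above them in water replicate 2 and in all CLE9 libraries. The means were 0.0045 ± 1.02 in water and 1.74 ± 0.16 with CLE9 (SD, n = 3 each).

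**Figure D3:**
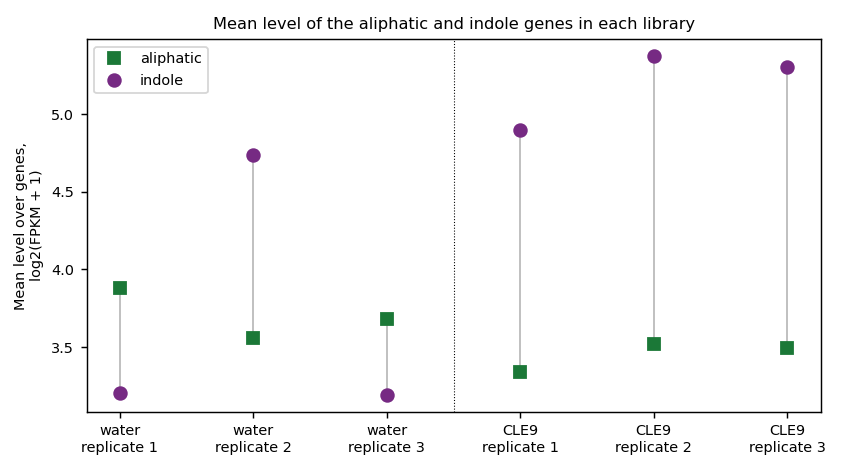
Mean level over the tested genes of the aliphatic branch (squares) and the indole branch (circles) in each library, in log2(FPKM + 1), with a grey line joining the branches. The aliphatic mean runs from 3.56 to 3.88 in water and from 3.34 to 3.52 with CLE9; the indole mean is 3.19 and 3.20 in water replicates 3 and 1, 4.74 in water replicate 2 and 4.90 to 5.37 with CLE9.

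Most of this difference lay in the indole genes. Their median change was 1.44, with 1.19, 1.13 and 1.91 in pairs 1, 2 and 3, and 8 of 12 were higher, against 42.6% of all genes. The aliphatic median was -0.57, -0.088 and -0.26 in the same pairs. Without replicate 2 of both groups the medians were 1.504 and -0.42. The indole set spanned -1.78 (CYP81F4) to 5.46 (IGMT2), so its median describes no single gene.

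Other genes of the pathway were read from a list of 54 that holds none of the 47, of which 48 were tested. With group only, limma called 0 of the 48 in either direction, and 14 higher and 1 lower had an unadjusted p under 0.05, against 5.83% and 3.07% of all genes. With the replicate block 8 rose and 0 fell, against 1.75% and 0.247% of all genes, and 0 were called with the block and a pseudocount of 0.1. The blocked fit called 0 without replicate 1 of both groups, 0 without replicate 3, and 20 (19 higher, 1 lower) without replicate 2, against 8.03% and 2.47% of all genes. The 8 lay in tryptophan synthesis (ASA1, ASB1, AT2G04400 and TSB1), in sulphate assimilation (APK, AKN2 and APS3) and in the core (GGP1).

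Tryptophan is the precursor of the indole branch, and all 7 of its synthesis genes on the list had a higher mean with CLE9, against 42.6% of all genes. TSB2 was at 2.86, 2.64 and 3.43 FPKM in water and 3.14, 10.4 and 3.43 FPKM with CLE9. Its log2 change was 0.58, and 0.051 without replicate 2 of both groups. ASB1 (AT1G25220), a subunit of anthranilate synthase, was at 12.5, 36.5 and 12.04 FPKM in water and 96.6, 190.3 and 88.6 FPKM with CLE9. The groups of ASB1 did not overlap, and the log2 change was 2.66 ± 0.51 (limma adjusted p = 0.255, and 0.0338 with the block). ASA1, the other subunit, differed by 1.87 ± 0.44, AT2G04400 by 1.69 ± 0.57 and the tryptophan synthase gene TSB1 by 1.84 ± 0.46. For these the limma adjusted p was 0.304, 0.471 and 0.328, and 0.0338, 0.0423 and 0.0365 with the block.

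The sulphate donor of the sulphotransferases is made by ATP sulphurylase and APS kinase. AKN2 (AT4G39940), an APS kinase gene, was at 9.97, 59.4 and 8.53 FPKM in water and 81.6, 423 and 93.2 FPKM with CLE9. Its log2 change was 3.01 ± 0.94 (limma adjusted p = 0.426, and 0.0316 with the block). APK, the other APS kinase gene, differed by 2.08 ± 0.51 and the ATP sulphurylase gene APS3 by 1.92 ± 0.30 (limma adjusted p = 0.328 and 0.244, and 0.0338 and 0.0428 with the block). In all 3 the CLE9 libraries lay above the water libraries. GGP1 (AT4G30530), the peptidase that trims the glutathione conjugate of the core pathway, was at 44.1, 112.9 and 44.3 FPKM in water and 247, 331 and 261 FPKM with CLE9. Its log2 change was 2.18 ± 0.41 (limma adjusted p = 0.255, and 0.0423 with the block).

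**Figure D4:**
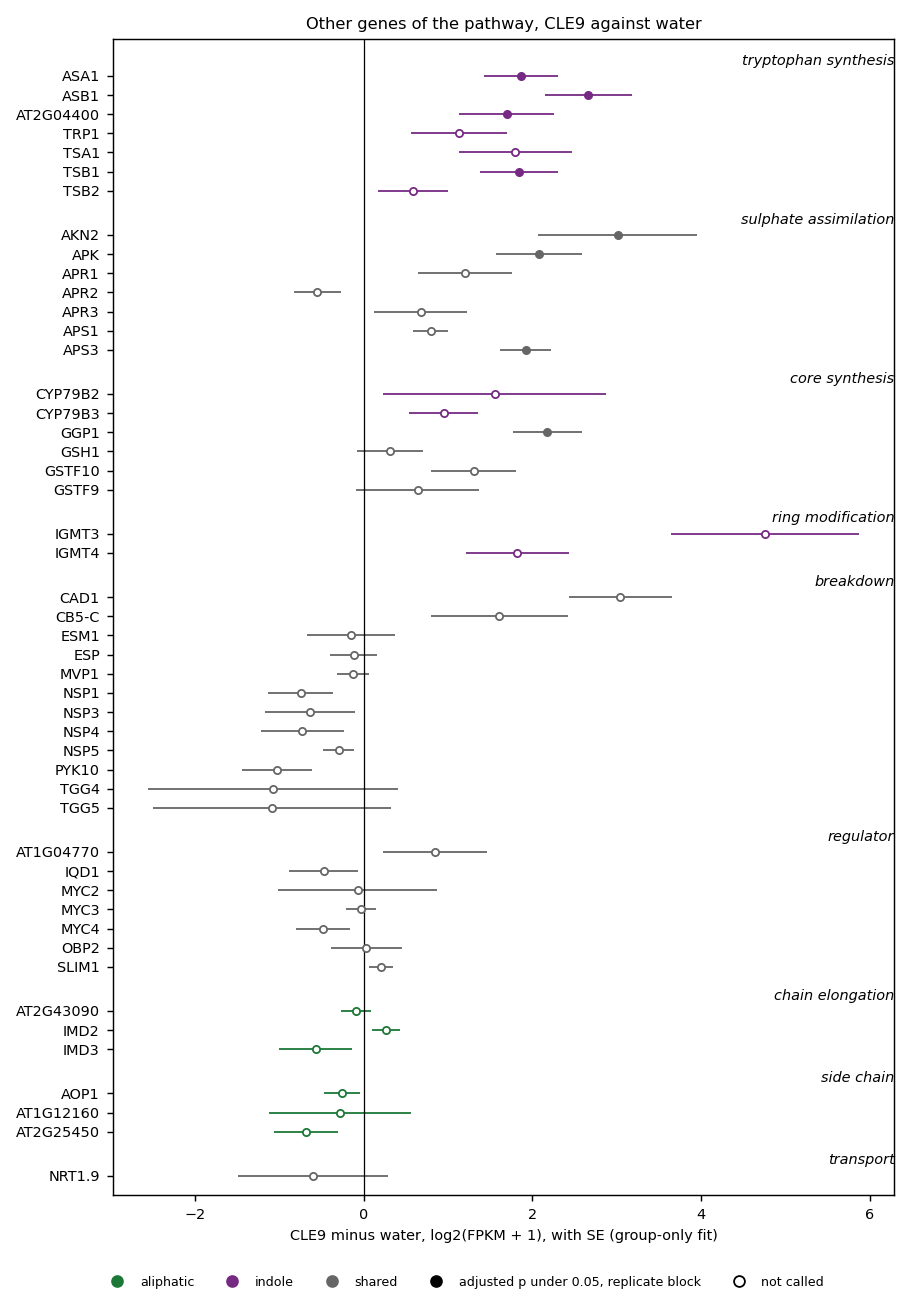
Difference between CLE9 and water for the 48 tested genes of the other list, on the log2(FPKM + 1) scale with the standard error of the group-only fit, grouped by role and coloured by branch. The 8 filled points, called with the replicate block, lie in tryptophan synthesis, sulphate assimilation and core synthesis, at 1.69 to 3.01; the 12 breakdown genes run from -1.09 to 3.04.

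CYP79B2 and CYP79B3, which make the oxime that CYP83B1 uses and that also feeds camalexin, had changes of 1.55 ± 1.32 and 0.95 ± 0.41 (limma adjusted p = 0.785 and 0.586). CYP79B2 was at 4.21, 27.1 and 4.75 FPKM in water and 6.91, 190.4 and 13.1 FPKM with CLE9, highest in replicate 2 of each group. IGMT3 differed by 4.76 ± 1.11 (adjusted p = 0.299), like its neighbour IGMT2. Of the breakdown genes, CAD1 (AT5G44070), which encodes phytochelatin synthase, known to act in the PEN2 route, was at 20.7, 96.6 and 21.0 FPKM in water and 277, 278 and 332 FPKM with CLE9 (3.04 ± 0.61, adjusted p = 0.255, and 0.0544 with the block). The other roles were led by MYC4 (-0.48 ± 0.32), IMD2 (0.26 ± 0.16), AT2G25450 (-0.68 ± 0.38) and NRT1.9 (-0.60 ± 0.89), all with an adjusted p of 0.688 or more.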

How the data were processed

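The deposited table gives FPKM per gene for 6 seedling libraries, computed by the authors, per the file headers. In the submitters' processing notes are TAIR10, DESeq2 1.16.1, featureCounts 1.5.0-p3, StringTie 1.3.3b, HISAT2 2.0.5 and CASAVA 1.8, with no role or order. Whether counting used the strand was not given in the sources used here. Gene coordinates are those of the table. Symbols, coding sequences and the sequence of promoter windows are from RefSeq (TAIR10.1), whose genes share a start or end with the table in 48.6% of 26719 matches. Each promoter window lies directly before the more upstream of the gene starts given by the table and by RefSeq. Coding sequences were aligned with Biopython 1.88.

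FPKM was taken as log2(FPKM + 1), which understates changes of low genes. The 17812 genes averaging at least 1 FPKM were fitted with limma 3.58.1 in R 4.3.3 (group only, mean-variance trend, two-sided, Benjamini-Hochberg over all of them, called under 0.05), after a test on simulated data. Between 40.6% and 45.8% of low values of single-exon genes fell within 0.1 of a whole fragment, so depth is approximate and no counts were recovered.

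The 47 genes, the other lists and the alternatives (replicate block, pseudocount, filter, quantile normalization, array weights, libraries left out) were chosen with earlier results of these data known, so no p-value over a list is given. Values are given for the regulators, the CYP79F, CYP83, CYP81F, IGMT and GTR genes, PEN2, PEN3, TGG1, TGG2, genes called with either fit and, by branch and role, the gene with the smallest p in each direction. Of the other list the called genes and the gene with the smallest p in each role are named. TSB2, CYP79B2 and CYP79B3 are named outside this rule, as are genes under other observations.

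Both groups carry replicate numbers 1, 2 and 3 in the labels. The fit with a block treats these numbers as pairs, which the labels do not state. Deviations from the group mean correlated at 0.545, 0.743 and 0.583 between libraries of the same number. Water replicate 1 with CLE9 replicate 3 (0.664) and water replicate 3 with CLE9 replicate 1 (0.62) correlated more strongly than pairs 1 and 3 (0.545 and 0.583). The correlations thus do not show that replicates 1 and 3 are paired by number.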

Additional observations from a re-analysis of the deposited data

How the results depend on the processing

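The count of glucosinolate genes called was 0 with group only, 5 (5 higher) with the replicate block and 26 (13 higher, 13 lower) with array weights, and 17 without replicate 2 of both groups. It was 16 with the block and without replicate 2, an alternative chosen after seeing the data. For the other pathway genes the counts were 0, 8 with the block, 29, 21 and 20. Over all genes they were 1 with group only, 355 with the replicate block, 2 with a pseudocount of 0.1 and the block, 3 without a filter, 2 with quantile normalization, 4884 (27.4%) with array weights, 2024 (11.4%) without replicate 2 and, with the block, 1870 (10.5%) without replicate 2, 0 without replicate 1 and 0 without replicate 3. Leaving out each library in turn gave 0 to 3 of the 41 genes, 0 to 6 of the other pathway genes and 0 to 204 of all genes, the highest in each case without water replicate 2. A pseudocount of 0.1, no filter and quantile normalization left the count of the 41 at 0. Of the 41 genes 12 had groups that do not overlap, against 16% of all genes. With a library left out they numbered 13 to 27, against 18.5% to 44.5% of all genes, the highest of both without water replicate 2, and without replicate 2 of both groups 31, against 57.2%.

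The median change of the aliphatic genes lay between -0.44 and -0.15 under the alternatives run, the latter with the block and without replicate 1 of both groups, and that of the indole genes between 1.19 and 1.76. The shift between the branches, 1.74, ran from 1.40 to 2.32. Signs turned only for small differences. MYB28 was at -0.014 with quantile normalization, -0.43 with array weights and -0.30 without replicate 2. CYP81F3 was at 0.061 and TGG1 at 0.20 with array weights, and FMO GS-OX1 at 0.039 and TGG2 at 0.080 without replicate 2. With a library left out, the ranges were -0.12 to 0.073 for IIL1, -0.42 to 0.35 for CYP79F2, -0.57 to 0.35 for CYP81F3, -0.29 to 0.26 for MYB28, -0.24 to 0.15 for FMO GS-OX1, -0.23 to 0.19 for TGG1, -0.15 to 0.067 for TGG2 and -0.57 to 0.0029 for IPMI2. For these differences and for the counts the cause was not tested. The comparison of proteins by identity was not run.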

Other observations

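The genes named here were chosen after their values were seen. The APS reductase gene APR1 was at 7.73, 7.84 and 8.155 FPKM in water replicates 1, 2 and 3 and at 24.1, 7.53 and 39.1 FPKM with CLE9. APR3, a second gene of this enzyme, was at 7.45, 11.6 and 7.66 FPKM and 20.6, 5.50 and 25.8 FPKM, and AT1G04770, a tetratricopeptide repeat gene, at 4.07, 5.87 and 4.58 FPKM and 14.3, 2.80 and 18.2 FPKM. These 3 genes were higher with CLE9 in pairs 1 and 3 and lower in pair 2, where the APS kinase gene AKN2 was higher in every pair. APR2, the third APS reductase gene, was lower in all 3 pairs, at 22.3, 24.1 and 26.4 FPKM in water and 17.7, 10.7 and 22.5 FPKM with CLE9 (log2 change -0.55 ± 0.28, limma adjusted p = 0.658, and -0.27 without replicate 2 of both groups, adjusted p = 0.375). None of APR1, APR3 and AT1G04770 was called by limma with group only (adjusted p = 0.611, 0.779 and 0.755), and these 3 rose without replicate 2 of both groups (adjusted p = 0.00756, 0.0036 and 0.00288).

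PYK10 (AT3G09260), a beta-glucosidase gene of root and hypocotyl endoplasmic reticulum bodies, was at 619, 616 and 621 FPKM in water and at 411, 165 and 409.7 FPKM with CLE9, with no overlap (log2 change -1.03 ± 0.41, limma adjusted p = 0.553). The nitrile specifier genes NSP1 and NSP5 also had CLE9 values below all water values, with changes of -0.75 ± 0.38 and -0.30 ± 0.19 (adjusted p = 0.657 and 0.721). Root markers were lower in replicate 2 of both groups (-0.87 and -2.06), and their part in these values was not tested.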
